A study of Homo sapiens with 7 samples.

Results

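The 43 genes described here encode the machinery that carries proteins between the endoplasmic reticulum (ER) and the Golgi apparatus. They are 43 of the 33694 genes in the count table, taken by gene symbol from a list of 19 cargo receptors, 19 coat subunits and 5 other factors. The list was chosen by function with the fold changes of this same comparison already known, so the calls below describe the genes and support no statement about the list as a whole. The cells were HK-2, immortalised epithelial cells of the human proximal tubule, labelled wild type. The siGLUT2 group, 3 libraries numbered 2 to 4, had received 50 nM siRNA against GLUT2, a facilitative glucose carrier and the product of SLC2A2. The scrambled group, 4 libraries numbered 1 to 4, had received 50 nM of a scrambled siRNA. Both groups were transfected with RNAiMAX and lysed after 96 h. The labels call the libraries biological replicates of the 1 cell line, so a p-value measures only the spread among those libraries. That spread was wider in the siGLUT2 group. The median squared difference of 2 libraries was 9.75 to 13.8 times that of counting noise there, and 4.55 to 7.17 times in the scrambled group.

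Proteins made in the ER leave it in vesicles coated with COPII, whose GTPase SAR1 recruits an inner layer of SEC23 and SEC24 and an outer cage of SEC13 and SEC31. Soluble cargo needs a receptor that spans the membrane and links it to SEC24, and lectins such as LMAN1 bind the sugars of glycoproteins for this purpose. Vesicles coated with COPI, a coatomer recruited by ARF GTPases, bring receptors and escaped ER residents back, the residents being caught by the KDEL receptors. In the proximal tubule this route supplies the transporters, endocytic receptors and peptidases of the cell surface.

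Total counts were 5881366 to 6914302 in siGLUT2 libraries and 5654957 to 8455963 in scrambled libraries. Genes with at least 1 count numbered 13433 to 13891 in siGLUT2 libraries and 14844 to 15036 in scrambled libraries, and mitochondrially encoded genes took 7.04 to 7.56% of counts in siGLUT2 libraries and 4.91 to 5.53% in scrambled libraries. SLC2A2 was counted 0, 0 and 0 times in siGLUT2 libraries and 13, 13, 7 and 17 times in scrambled libraries (adjusted p = 0.0085). Of 11 proximal tubule markers, 3 were counted in every library, while LRP2 and SLC22A6 were at 0 in every library and AQP1, CUBN, ANPEP and HNF4A were at 0 in most libraries. Summed epithelial markers (KRT8, KRT18, KRT19, EPCAM, CDH1, CDH2, PAX8) lay at 1101 to 1252 CPM (counts scaled to a common library size) in siGLUT2 libraries and 1509 to 1634 CPM in scrambled libraries. That difference lay mostly in the keratins KRT8, KRT18 and KRT19. These and the sparsely counted CDH1 had fewer counts in every siGLUT2 library than in any scrambled one. Scaled by library totals, EPCAM and PAX8 overlapped between the groups, while CDH2 was higher in every siGLUT2 library than in any scrambled one. Summed fibroblast and pericyte markers lay at 44.7 to 51.3 CPM in siGLUT2 libraries and 16.6 to 22.6 CPM in scrambled libraries, most of the difference being LUM, with DCN and PDGFRA at 0 in most libraries. Leukocyte markers lay at 25.8 to 28.3 CPM in siGLUT2 libraries and 13.6 to 18.7 CPM in scrambled libraries, from CD68, with PTPRC and CD3E at 0, and all 5 endothelial markers were at 0 throughout. The part of these differences in the results below was not tested, and in bulk RNA fewer cells with a transcript and less of it per cell cannot be told apart.

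All 43 genes passed the filter on low counts, with between 29 and 5444 counts per gene and library. In siGLUT2 cells 13 of them were higher and 7 lower at an adjusted p below 0.05, where 13.9% of the 12404 genes tested were higher and 14.4% lower. For 24 of the 43 the levels of siGLUT2 and scrambled libraries did not overlap, where 35.1% of all tested genes had no overlap, and 28.3% of all tested genes were called in either direction. The adjusted p values come from the quasi-likelihood test of edgeR, with the Benjamini-Hochberg method applied to all 12404 genes. Each fold change is the log2 ratio of siGLUT2 to scrambled with its SE. CPM values from here on are scaled by the trimmed mean of M-values (TMM), while the marker sums above were scaled by library totals only. Levels are listed in the order of replicate number. The median log2 fold change of the 43 was 0.16, beside -0.0029 over all tested genes.

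**Figure D1:**
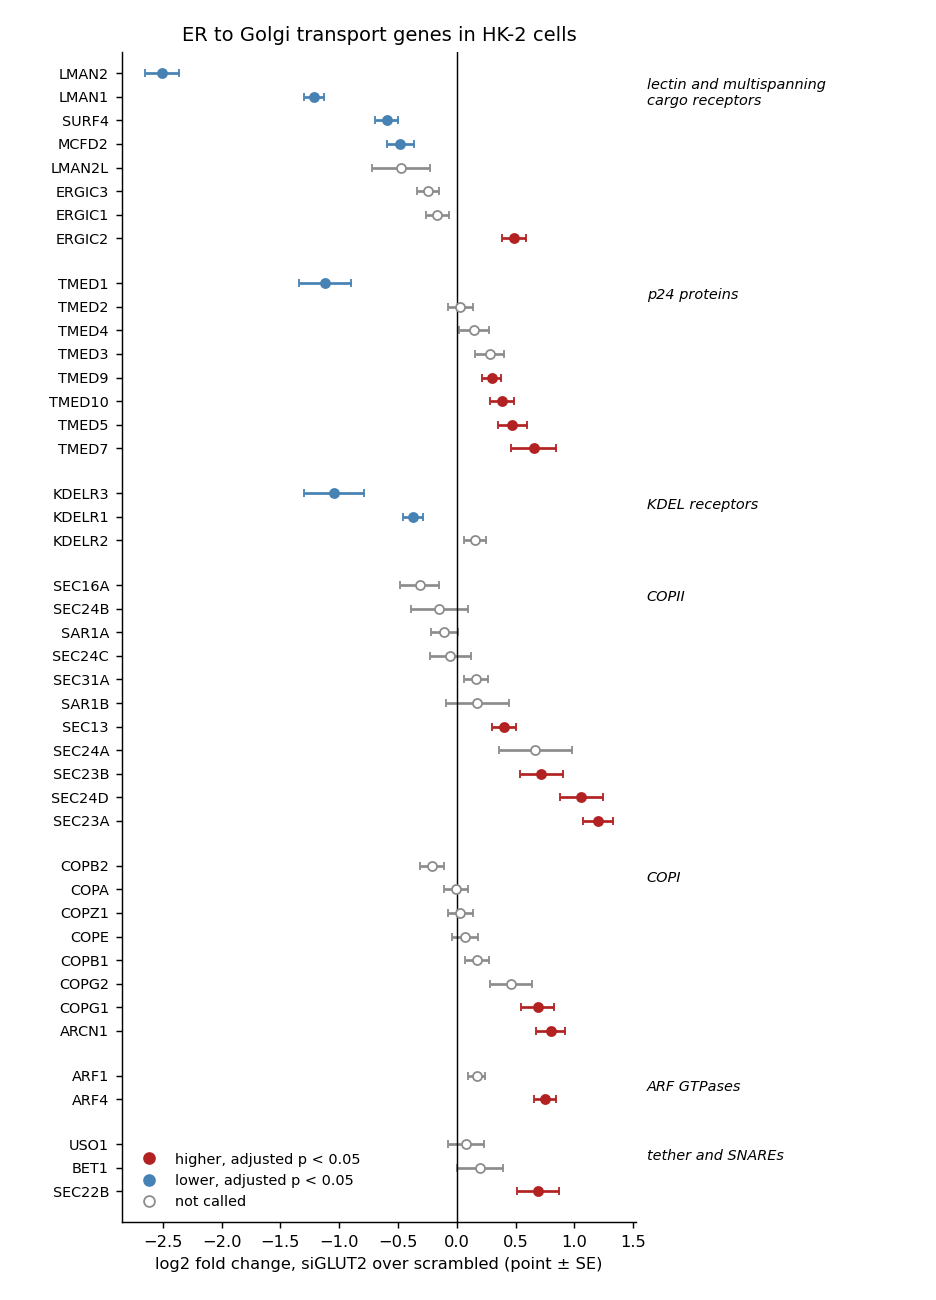
Log2 fold change of siGLUT2 over scrambled libraries (horizontal axis, point ± SE) for all 43 genes, ordered by role. Filled points passed an adjusted p of 0.05. LMAN2 lies farthest to the left at -2.51 and SEC23A farthest to the right at 1.20, and no filled point of the COPII and COPI groups lies left of 0.

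The lectin receptors LMAN1 and LMAN2 showed the largest falls of the set. Of the 8 lectin and multispanning cargo receptors, 4 fell (LMAN2, LMAN1, SURF4, MCFD2), 1 rose (ERGIC2) and 3 were not called, with a median log2 fold change of -0.48. LMAN2 (ENSG00000169223, GRCh38 chr5:177331562-177351852, minus strand) encodes VIP36, a lectin for high-mannose glycans that cycles through the early secretory pathway. Its level was 25.1, 34.4 and 40.3 CPM in siGLUT2 libraries and 189, 216, 174 and 179 CPM in scrambled libraries. Every siGLUT2 library lay far below every scrambled one, and the means of 33.3 ± 7.7 CPM (SD, n = 3) in siGLUT2 libraries and 189.5 ± 18.9 CPM (SD, n = 4) in scrambled libraries were farther apart than the spread. The fitted level was 5.68-fold lower in siGLUT2 libraries. The log2 fold change of LMAN2 was -2.51 ± 0.14 (adjusted p = 3.62e-11), and 80 of the 12404 tested genes had a lower one.

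LMAN1 (ENSG00000074695, GRCh38 chr18:59327823-59359962, minus strand), also called ERGIC-53, is the receptor that carries coagulation factors V and VIII out of the ER together with its partner MCFD2. It had 239, 206 and 211 CPM in siGLUT2 libraries and 498, 543, 476 and 511 CPM in scrambled libraries. The groups were far apart, with a log2 fold change of -1.22 ± 0.09 (adjusted p = 1.18e-09). MCFD2, the calcium-binding soluble partner of LMAN1, had 112, 96.4 and 94.3 CPM in siGLUT2 libraries and 157, 123, 141 and 141 CPM in scrambled libraries. Its groups did not overlap either, but its fall was smaller, at -0.48 ± 0.11 (adjusted p = 0.00271). The ratio of LMAN1 to MCFD2 counts was therefore lower in siGLUT2 libraries, at 2.13, 2.13 and 2.24, than in scrambled libraries, at 3.17, 4.41, 3.37 and 3.62.

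SURF4, a multispanning receptor for soluble cargo such as lipoproteins, had 114, 134 and 146 CPM in siGLUT2 libraries and 201, 194, 195 and 205 CPM in scrambled libraries. The scrambled libraries lay close together for SURF4 and the siGLUT2 libraries all lay below them (-0.60 ± 0.10, adjusted p = 0.000109). ERGIC2, a membrane protein of the compartment between ER and Golgi, went the other way, with 182, 173 and 160.1 CPM in siGLUT2 libraries and 121, 124, 133 and 113 CPM in scrambled libraries. It rose by 0.48 ± 0.10 (adjusted p = 0.000853), without overlap. Its relatives were not called: ERGIC3 had 178, 162 and 196 CPM in siGLUT2 libraries and 217, 206, 223 and 203 CPM in scrambled libraries. No siGLUT2 library reached a scrambled one for ERGIC3, and its adjusted p was 0.0549 (log2 fold change -0.25, interval of 2 SE to either side -0.44 to -0.06). ERGIC1 had 219, 190.4 and 172 CPM in siGLUT2 libraries and 234, 204, 207 and 223 CPM in scrambled libraries, with overlap (adjusted p = 0.23, interval -0.36 to 0.03). LMAN2L, the close relative of LMAN2, had 11.1, 19.2 and 18.0 CPM in siGLUT2 libraries and 19.2, 24.9, 26.9 and 18.3 CPM in scrambled libraries, with overlap and an interval of -0.96 to 0.01 (adjusted p = 0.159).

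The 3′ UTRs of LMAN1 and LMAN2 hold short words that an earlier scan of these same fold changes had picked out, GACCTTA and ACCTTAA. The sequence of the siRNA is not given in the sources used here, so whether the words match it was not tested, and the words give no independent support. The sites are printed for the genes that changed, from GENCODE 29 transcripts on GRCh38, in the sense of the transcript, with the word in capitals.
LMAN2, chr5:177331982-177332010, minus strand: aacaacaagatGACCTTAtttcttaactg
LMAN1, chr18:59330929-59330957, minus strand: gttaagaataaACCTTAAagcaaagacaa
LMAN1, chr18:59327838-59327866, minus strand: gaaatggcattGACCTTAttcaaataaag
KDELR3, chr22:38482776-38482804, plus strand: tgcaacaagaaACCTTAAggtgtcttacc
KDELR3, chr22:38483152-38483180, plus strand: ttgtacttagtACCTTAAtaccaataacc
TMED5, chr1:93152888-93152916, minus strand: tatgatcaattACCTTAAttggccaagaa
The LMAN2 word begins at base 87 of a 3′ UTR of 524 bases, and the words of LMAN1 begin at bases 147 and 3238 of 3270.

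Of the 43 genes, 7 held a word (16.3%), beside 1789 of the 11621 tested genes with a scanned 3′ UTR (15.4%). SAR1A, COPZ1 and USO1 were the other holders and were not called. Among the 19 cargo receptors, the 4 with a word (LMAN1, LMAN2, KDELR3, TMED5) had a median log2 fold change of -1.13, with 3 lower and 1 higher, while the 15 without a word had a median of 0.03, with 4 lower and 4 higher. Over all scanned genes the median was -0.10 with a word, where 21.2% were lower and 10.9% higher, and 0.02 without a word, where 13.6% were lower and 15.1% higher. The words had been picked from these same fold changes, so both differences only describe that choice. SURF4, MCFD2, TMED1 and KDELR1 fell without holding either word.

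**Figure D2:**
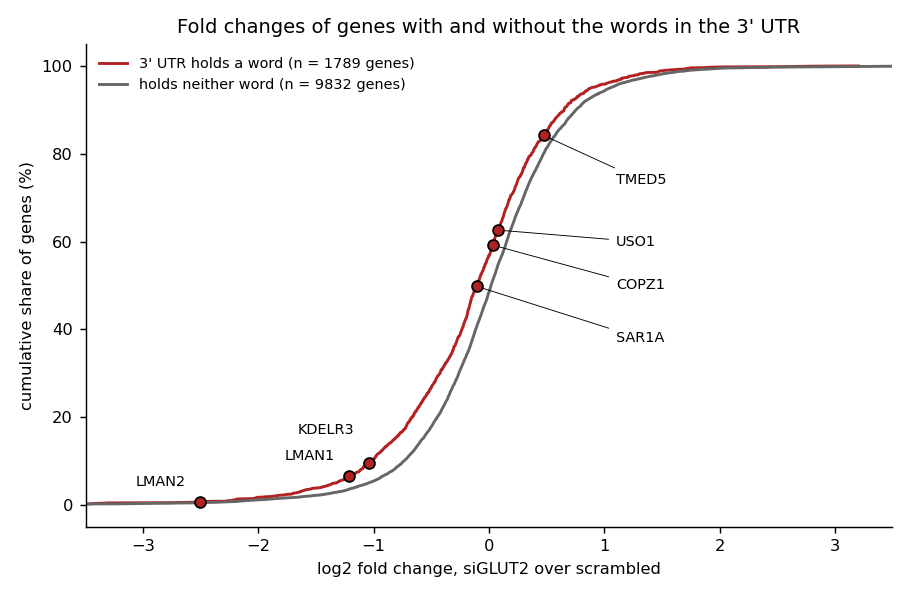
Cumulative share of genes (vertical axis, %) by log2 fold change of siGLUT2 over scrambled (horizontal axis) for 1789 genes with GACCTTA or ACCTTAA in the 3′ UTR and 9832 genes with neither, with the 7 holders among the transport genes as points on their curve. The curve with a word runs to the left of the other, and LMAN2, LMAN1 and KDELR3 sit in its lower tail, whereas TMED5, USO1, COPZ1 and SAR1A sit in its middle and upper part.

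Among the p24 proteins several rose in siGLUT2 cells and TMED1 fell. These proteins, named TMED, form mixed complexes that package cargo such as proteins with a lipid anchor and also bind COPI. Of 8, 4 rose (TMED5, TMED10, TMED9, TMED7), 1 fell (TMED1) and 3 were not called, with a median log2 fold change of 0.29. TMED9, an alpha member of the family, had 519, 496 and 527 CPM in siGLUT2 libraries and 392, 449, 417 and 416 CPM in scrambled libraries. The siGLUT2 levels were all above the scrambled ones and rose by 0.30 ± 0.08 (adjusted p = 0.00686). TMED10, the delta member, had 219, 179 and 189 CPM in siGLUT2 libraries and 145, 139, 163 and 152 CPM in scrambled libraries. It rose by 0.38 ± 0.10 without overlap (adjusted p = 0.00597).

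TMED5, a gamma member, had 98.7, 125 and 107 CPM in siGLUT2 libraries and 81.0, 70.2, 88.2 and 79.2 CPM in scrambled libraries (0.47 ± 0.12, adjusted p = 0.0053). TMED7, another gamma member, had 40.2, 56.8 and 42.4 CPM in siGLUT2 libraries and 28.6, 23.1, 38.6 and 27.9 CPM in scrambled libraries (0.65 ± 0.19, adjusted p = 0.0123). For TMED7 the gap between the groups was narrow, and without siGLUT2 replicate 3 the adjusted p was 0.0969, without scrambled replicate 2 it was 0.0573, the range over 16 alternatives being 0.00359 to 0.0969. TMED1, also of the gamma subfamily, had 12.1, 12.8 and 10.8 CPM in siGLUT2 libraries and 27.6, 25.9, 23.1 and 27.3 CPM in scrambled libraries. Its levels fell by 1.12 ± 0.22 on the log2 scale (adjusted p = 0.000495), and no library of one group came near the other. In the annotation TMED1 overlaps DNM2 on the opposite strand, which had 6616 counts over the 7 libraries against 980 for TMED1, and reads of overlapping genes cannot be told apart where the strand setting is unknown. TMED5, COPA and COPB2 overlap CCDC18, NCSTN and MRPS22 in the same way.

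TMED2, the beta member and a partner of TMED10, had 194, 213 and 166 CPM in siGLUT2 libraries and 186, 164, 212 and 187 CPM in scrambled libraries, fully overlapping (log2 fold change 0.03, interval -0.19 to 0.24, adjusted p = 0.88). The ratio of TMED10 to TMED2 counts was 1.13, 0.843 and 1.14 in siGLUT2 libraries. In scrambled libraries that ratio was 0.779, 0.851, 0.771 and 0.814, with overlap. TMED4, an alpha member, had 94.1, 117 and 89.9 CPM in siGLUT2 libraries and 105, 79.2, 89.9 and 89.1 CPM in scrambled libraries (interval -0.11 to 0.40, adjusted p = 0.443). TMED3 had siGLUT2 levels above every scrambled level, but its log2 fold change of 0.28 did not pass (adjusted p = 0.109).

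The KDEL receptors divided. KDELR1 is one of the receptors that bind the KDEL tail of ER chaperones in the Golgi and return them. It had 421, 501 and 469 CPM in siGLUT2 libraries and 570.1, 653, 589 and 587 CPM in scrambled libraries. All siGLUT2 libraries lay lower, with a log2 fold change of -0.37 ± 0.08 (adjusted p = 0.00187). KDELR3, a further receptor of the family, had 15.5, 18.3 and 11.6 CPM in siGLUT2 libraries and 31.8, 18.0, 41.4 and 34.0 CPM in scrambled libraries. It was called lower (-1.04 ± 0.26, adjusted p = 0.0036), but scrambled replicate 2 fell inside the siGLUT2 range, the one called gene of the set whose groups overlapped. DDX17, which overlaps KDELR3 on the opposite strand, had 12766 counts against 1189 for KDELR3. KDELR2 was not called: it had 217, 258 and 216 CPM in siGLUT2 libraries and 195, 206, 211 and 214 CPM in scrambled libraries, all siGLUT2 libraries being slightly higher (0.16 ± 0.09, interval -0.03 to 0.34, adjusted p = 0.228).

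**Figure D3:**
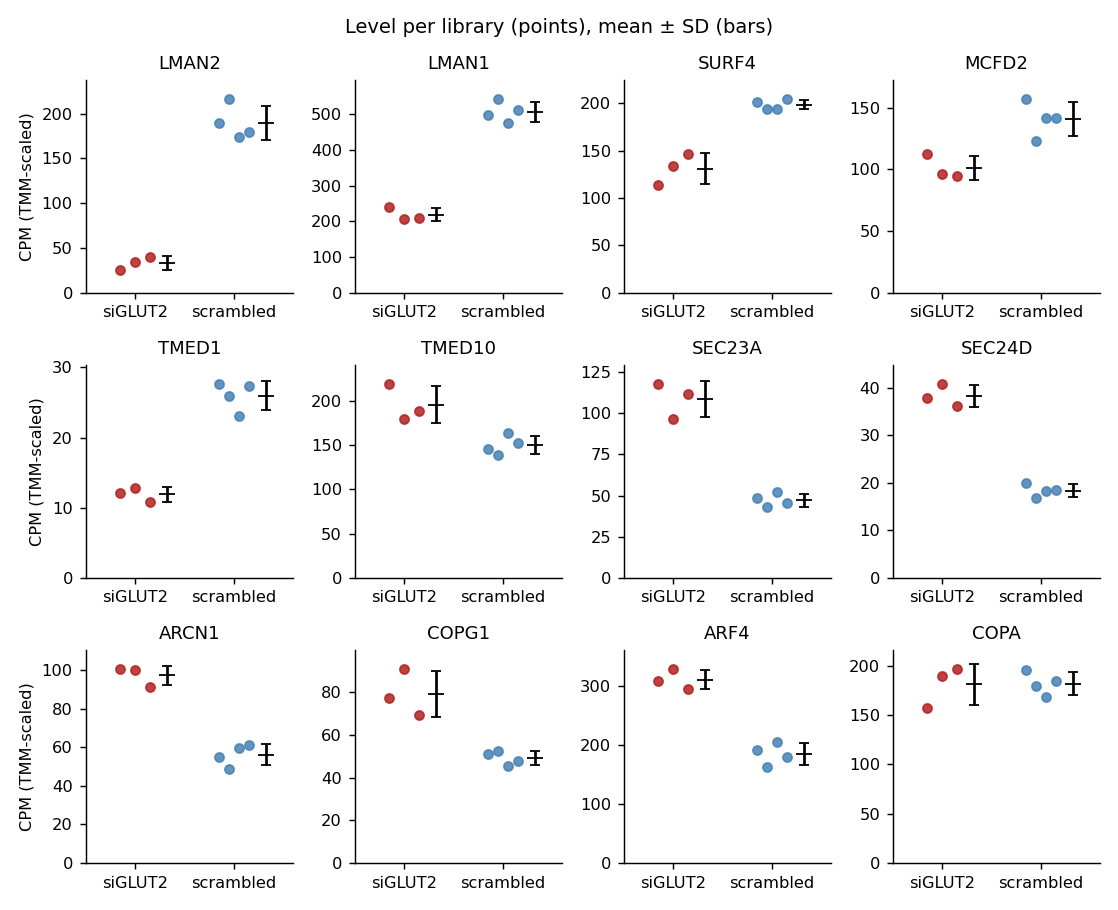
Level of 12 genes in each library (points, CPM after TMM scaling, each axis from 0) with mean ± SD as bars, 3 siGLUT2 libraries on the left and 4 scrambled libraries on the right of each panel. The receptors LMAN2, LMAN1, SURF4, MCFD2 and TMED1 are lower in every siGLUT2 library, TMED10, SEC23A, SEC24D, ARCN1, COPG1 and ARF4 are higher in every siGLUT2 library, and COPA overlaps.

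Within COPII the largest rises were in the inner layer. Of 11 COPII genes 4 rose (SEC23A, SEC24D, SEC23B, SEC13) and 7 were not called, and the median log2 fold change was 0.17. SEC23A (ENSG00000100934, GRCh38 chr14:39031919-39109646, minus strand), the GTPase-activating subunit of the inner layer, had 118, 96.4 and 112 CPM in siGLUT2 libraries and 48.8, 42.9, 51.9 and 45.3 CPM in scrambled libraries. The siGLUT2 levels were about 2.3 times the scrambled ones and nowhere near them, with a log2 fold change of 1.20 ± 0.13 (adjusted p = 3.2e-07). SEC23B, its paralogue, had 45.4, 55.6 and 35.3 CPM in siGLUT2 libraries and 28.2, 27.1, 32.0 and 23.1 CPM in scrambled libraries. It rose by 0.72 ± 0.18 without overlap (adjusted p = 0.00522), and without siGLUT2 replicate 3 its adjusted p was 0.0519 (range over alternatives 0.000779 to 0.0519).

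SEC24D (ENSG00000150961, GRCh38 chr4:118722823-118838683, minus strand) is one of the cargo-binding subunits. It had 37.9, 40.8 and 36.1 CPM in siGLUT2 libraries and 19.9, 16.8, 18.3 and 18.5 CPM in scrambled libraries. The libraries of each group lay close together and the groups far apart (1.06 ± 0.18, adjusted p = 0.000131). The other SEC24 genes were not called. SEC24A had 11.9, 18.0 and 13.0 CPM in siGLUT2 libraries and 12.1, 9.23, 9.49 and 5.11 CPM in scrambled libraries (0.67, interval 0.05 to 1.29, adjusted p = 0.116). SEC24B had 17.4, 16.7 and 13.3 CPM in siGLUT2 libraries and 15.8, 15.4, 22.1 and 16.8 CPM in scrambled libraries (-0.15, interval -0.63 to 0.33, adjusted p = 0.695). SEC24C had 28.0, 40.2 and 37.5 CPM in siGLUT2 libraries and 35.5, 39.9, 38.3 and 32.8 CPM in scrambled libraries (-0.06, interval -0.41 to 0.29, adjusted p = 0.848). All 3 overlapped between the groups. SEC24A also overlaps SAR1B on the opposite strand.

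SEC13, a subunit of the outer cage that also serves in the nuclear pore, had 148, 129 and 137 CPM in siGLUT2 libraries and 102, 105, 112 and 98.4 CPM in scrambled libraries. It rose by 0.40 ± 0.11 with no overlap (adjusted p = 0.00609). Its cage partner SEC31A had 149.7, 144 and 133 CPM in siGLUT2 libraries and 117, 124, 130.3 and 137 CPM in scrambled libraries, overlapping at one end (0.16, interval -0.04 to 0.37, adjusted p = 0.254). The ratio of SEC23A to SEC31A counts was 0.786, 0.671 and 0.838 in siGLUT2 libraries and 0.416, 0.348, 0.398 and 0.330 in scrambled libraries, without overlap. Within the outer layer, the ratio of SEC31A to SEC13 counts was 1.01, 1.12 and 0.973 in siGLUT2 libraries and 1.15, 1.18, 1.17 and 1.39 in scrambled libraries, also without overlap. SAR1A, the GTPase that starts the coat, had 99.4, 117 and 137 CPM in siGLUT2 libraries and 135, 124, 129 and 121 CPM in scrambled libraries (-0.11, interval -0.34 to 0.12, adjusted p = 0.533). Its paralogue SAR1B (0.17, interval -0.36 to 0.71, adjusted p = 0.677) and SEC16A, the scaffold of ER exit sites (-0.32, interval -0.65 to 0.02, adjusted p = 0.167), overlapped as well.

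In COPI, ARCN1 and COPG1 rose and the other 6 subunits were not called, with a median log2 fold change of 0.12. ARCN1 (ENSG00000095139, GRCh38 chr11:118572390-118603033, plus strand), the delta subunit of coatomer, had 100.5, 100.0 and 91.5 CPM in siGLUT2 libraries and 54.8, 48.9, 59.4 and 61.0 CPM in scrambled libraries. The groups were well separated (0.80 ± 0.13, adjusted p = 4.83e-05). COPG1, the first gamma subunit, had 77.4, 90.8 and 69.6 CPM in siGLUT2 libraries and 51.0, 52.6, 45.5 and 47.8 CPM in scrambled libraries, again without overlap (0.69 ± 0.14, adjusted p = 0.000593). Its paralogue COPG2 had 41.1, 35.0 and 35.7 CPM in siGLUT2 libraries and 21.7, 28.9, 25.7 and 32.1 CPM in scrambled libraries. All siGLUT2 libraries were higher for COPG2, but it missed the threshold (0.46 ± 0.18, interval 0.10 to 0.83, adjusted p = 0.0639).

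COPA, the alpha subunit of the outer coatomer layer, had 157, 189.9 and 196 CPM in siGLUT2 libraries and 196, 179.5, 168 and 185 CPM in scrambled libraries, with a log2 fold change of -0.01 (interval -0.21 to 0.20, adjusted p = 0.974). COPB2, the beta-prime subunit of that layer, had 218, 185 and 160.1 CPM in siGLUT2 libraries and 213, 217, 224 and 216 CPM in scrambled libraries. The scrambled libraries were tight, and siGLUT2 replicate 2 lay among them with the others below (-0.21, interval -0.42 to -0.01, adjusted p = 0.123). Without siGLUT2 replicate 2, COPB2 was called lower (adjusted p = 0.00681, range over alternatives 0.00681 to 0.414). COPB1, COPE and COPZ1 had log2 fold changes of 0.17, 0.07 and 0.03, with overlap (adjusted p = 0.245, 0.695 and 0.862). The ratio of ARCN1 to COPB2 counts was 0.462, 0.541 and 0.571 in siGLUT2 libraries and 0.258, 0.225, 0.266 and 0.282 in scrambled libraries.

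The promoters of several coat genes hold TGACGTGG, the core of the element bound in the unfolded protein response by XBP1 and ATF6. The window searched ran from 250 bases before to 50 bases after the gene start on both strands, in RefSeq sequence of GRCh38.p14, which had an entry for 36 of the 43 genes. That start is RefSeq's and not always GENCODE's, and the printed windows of SEC23A, COPA and COPB1 and the second one of COPB2 lie inside the bounds that GENCODE gives the gene. The windows are printed in the sense of the gene. Capitals mark the match, which reads CCACGTCA where it lies on the other strand, and that form begins with the CCACG that ends the ER stress element.
SEC23A, chr14:39103221-39103250, minus strand: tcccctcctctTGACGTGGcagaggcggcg
SEC24A, chr5:134648595-134648624, plus strand: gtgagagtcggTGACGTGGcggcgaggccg
COPA, chr1:160343227-160343256, minus strand: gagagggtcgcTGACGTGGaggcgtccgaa
COPB1, chr11:14499841-14499870, minus strand: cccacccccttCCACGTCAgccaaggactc
COPB2, chr3:139389825-139389854, minus strand: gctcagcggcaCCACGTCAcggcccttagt
COPB2, chr3:139389632-139389661, minus strand: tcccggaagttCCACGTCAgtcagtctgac
KDELR3, chr22:38468039-38468068, plus strand: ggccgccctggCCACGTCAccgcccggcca
SEC16A and ARF1 held a match too.

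A match was present in 8 of the 36 genes (22.2%), beside 253 of 27305 genes with a promoter entry (0.927%) and 123 of 9971 tested genes with one (1.23%). Among coat subunits 6 of 18 held it (33.3%), and among cargo receptors 1 of 15 (6.67%). The 8 genes did not share a direction: SEC23A rose, KDELR3 fell and 6 were not called, with a median log2 fold change of 0.08. The 123 tested genes with a match had a median of 0.17, with 21 higher and 15 lower. Over all 12404 tested genes the median was -0.0029, with 13.9% higher and 14.4% lower. Whether genes with a match differ from the others was not tested. The longer ER stress elements, I and II, and the cAMP response element TGACGTCA were in 0 of the 36 promoters and in 0.092%, 0.07% and 2.25% of all promoters. A match is a run of letters and not a measured binding site.

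Of the remaining factors, ARF4 and SEC22B rose. ARF4, a small GTPase that recruits coats at the early Golgi together with ARF1, had 309, 329 and 296 CPM in siGLUT2 libraries and 192, 162, 206 and 180.3 CPM in scrambled libraries. The rise of 0.75 ± 0.09 (adjusted p = 2.74e-06) left the groups far apart. ARF1 had 579, 613 and 602 CPM in siGLUT2 libraries and 541, 505, 543 and 541 CPM in scrambled libraries. The groups did not overlap, but the difference was small and did not pass (0.17 ± 0.08, interval 0.02 to 0.32, adjusted p = 0.104). SEC22B, a SNARE protein of vesicles between ER and Golgi, had 47.1, 42.2 and 66.1 CPM in siGLUT2 libraries and 34.2, 34.4, 27.1 and 32.6 CPM in scrambled libraries (0.69 ± 0.18, adjusted p = 0.0049). Its partner SNARE BET1 (0.20, interval -0.20 to 0.59, adjusted p = 0.505) and USO1, the tether also called p115 (0.08, interval -0.23 to 0.38, adjusted p = 0.754), overlapped between the groups.

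Set side by side, cargo receptors and coat subunits differed in how their members were called. Of 19 cargo receptors 5 rose, 7 fell and 7 were not called, with a median log2 fold change of -0.17. Of 19 coat subunits 6 rose, 0 fell in edgeR's test and 13 were not called, with a median of 0.17. DESeq2 and limma-voom also called 0 coat subunits lower, and 1 (COPB2) was lower at an unadjusted p under 0.05. The difference of the medians, -0.34 on the log2 scale, was not even across libraries: against the scrambled mean it was -0.04 in siGLUT2 replicate 2, -0.42 in replicate 3 and -0.40 in replicate 4. It also depended on which genes were counted. It was 0.12 with the p24 proteins alone as receptors, -0.45 with SAR1A, SAR1B and SEC16A left out of the coat subunits, and -0.15 without the 7 genes that hold a 3′ UTR word. As those words had been picked from these same fold changes, the last value only describes that choice. The grouping was proposed with these results known and no test was made of it.

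Summed over the 19 cargo receptors the level was 2990.2, 3066 and 2952 CPM in siGLUT2 libraries and 3470.2, 3523, 3520 and 3469 CPM in scrambled libraries. The 19 coat subunits together had 1639, 1727 and 1649 CPM in siGLUT2 libraries and 1477, 1474, 1486 and 1443 CPM in scrambled libraries. Both sums were without overlap and went in opposite directions. The mean of the coat sum rose through the 6 called subunits, and the other 13 together had no higher mean in siGLUT2 libraries. Without LMAN1 and LMAN2 the cargo receptors summed to 2726, 2826 and 2700.4 CPM in siGLUT2 libraries and 2784, 2764, 2870 and 2779 CPM in scrambled libraries, which overlapped. The total of all 43 genes was 5717 ± 122.5 CPM (SD, n = 3) in siGLUT2 libraries and 5790.1 ± 56.1 CPM (SD, n = 4) in scrambled libraries, a difference within the spread. The lectin and multispanning receptors had 1044 ± 32.5 CPM in siGLUT2 libraries and 1610.1 ± 30.5 CPM in scrambled libraries, while p24 proteins had 1249.8 ± 28.6 CPM in siGLUT2 libraries and 1048 ± 38.8 CPM in scrambled libraries. COPII genes together had 726 ± 15.3 CPM in siGLUT2 libraries and 597 ± 21.6 CPM in scrambled libraries, and COPI genes 945 ± 37.5 CPM in siGLUT2 libraries and 873 ± 9.6 CPM in scrambled libraries.

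**Figure D4:**
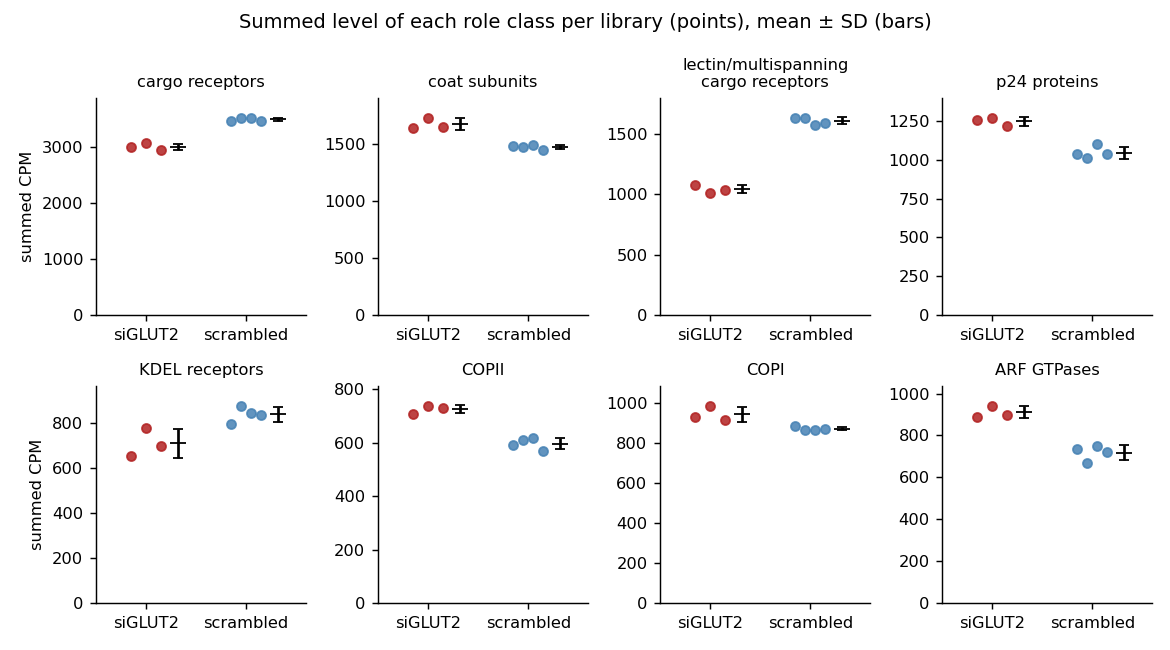
Summed level of 8 role groups in each library (points, CPM after TMM scaling, each axis from 0) with mean ± SD as bars, 3 siGLUT2 libraries on the left and 4 scrambled libraries on the right of each panel. The sums of cargo receptors, of lectin and multispanning receptors and of KDEL receptors are lower in siGLUT2 libraries, and coat subunits, p24 proteins, COPII, COPI and ARF GTPases are higher, without overlap in any panel.

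Paralogues within a family took different shares of its counts after siGLUT2, a measure that does not depend on scaling between libraries. A share also moves when only a relative of the gene changes. Among the genes below whose shares differed, LMAN2L, KDELR2, SEC24C and SEC24B were not called in their own level (log2 fold changes -0.48, 0.16, -0.06 and -0.15). The method counts transcript ends, so counts of paralogues were not divided by length. SEC24D made up 39.8, 35.2 and 36.1% of SEC24 counts in siGLUT2 libraries and 23.9, 20.6, 20.8 and 25.3% in scrambled libraries and was the largest share in siGLUT2 replicates 2 and 3. SEC24C, the largest share in every scrambled library, took 29.4, 34.7 and 37.6% in siGLUT2 libraries and 42.6, 49.1, 43.4 and 44.8% in scrambled libraries. SEC24B took 18.3, 14.4 and 13.3% in siGLUT2 libraries and 19.0, 18.9, 25.1 and 22.9% in scrambled libraries, and the share of SEC24A overlapped, at 12.5 to 15.6% in siGLUT2 libraries and 6.99 to 14.5% in scrambled libraries. The shares of SEC24D, SEC24C and SEC24B did not overlap between the groups.

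KDELR2 took 33.2, 33.2 and 31.0% of KDEL receptor counts in siGLUT2 libraries and 24.5, 23.5, 25.1 and 25.6% in scrambled libraries, without overlap. KDELR1 took 64.4, 64.5 and 67.4% in siGLUT2 libraries and 71.5, 74.5, 70.0 and 70.3% in scrambled libraries, also without overlap, and KDELR3 took 1.66 to 2.38% in siGLUT2 libraries and 2.05 to 4.91% in scrambled libraries. LMAN2L made up 30.7, 35.8 and 30.8% of the counts of LMAN2 and LMAN2L in siGLUT2 libraries and 9.21, 10.3, 13.4 and 9.29% in scrambled libraries and LMAN2 the rest, without overlap. SEC23A took 72.2, 63.4 and 76.0% of SEC23 counts in siGLUT2 libraries and 63.4, 61.3, 61.8 and 66.2% in scrambled libraries, with overlap. SAR1A, at 85.9 to 90.8% of SAR1 counts in siGLUT2 libraries and 89.5 to 91.4% in scrambled libraries, and COPG1, at 65.3 to 72.2% of COPG counts in siGLUT2 libraries and 59.8 to 70.1% in scrambled libraries, overlapped too.

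**Figure D5:**
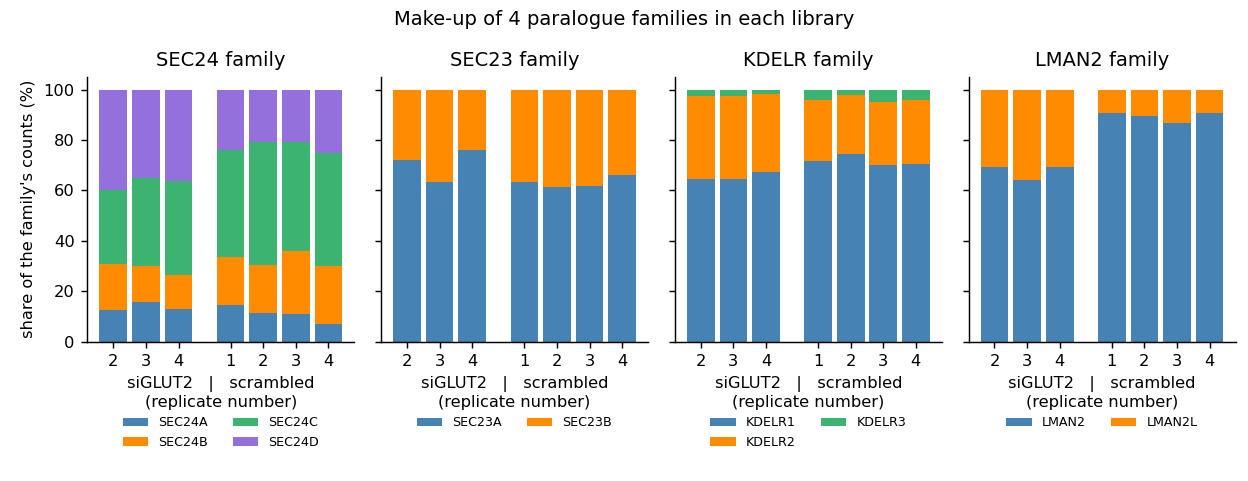
Share of each paralogue in the counts of its family (vertical axis, %) in the 3 siGLUT2 libraries (left bars) and the 4 scrambled libraries (right bars) for SEC24, SEC23, KDEL receptors and LMAN2 with LMAN2L. SEC24D, KDELR2 and LMAN2L take a larger share in every siGLUT2 library, whereas the SEC23 shares overlap. The levels of KDELR2 and LMAN2L themselves were not called.

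The called genes also differed in the median base composition of their 3′ UTRs, with overlapping ranges. Median GC content was 33.8% for the 13 higher genes (range 28.3 to 53.8%), 50.9% for the 7 lower ones (33.1 to 59.1%) and 42.2% for the 23 not called. Over all scanned genes it was 40.0% for higher, 44.6% for lower and 42.3% for uncalled ones. With an offset per library fitted to 3′ UTR GC content, chosen after the data were seen, 15 of the 43 were higher and 8 lower, and none of the 20 calls was lost or turned in direction.

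Among 156 further genes of the secretory pathway listed by function, 149 passed the filter, 24 rose and 25 fell (16.1% and 16.8%, against 13.9% and 14.4% of all tested genes), with a median log2 fold change of 0.03. Of 11 further export receptors and p24 proteins 4 fell. They included BCAP29 (-1.27 ± 0.14, adjusted p = 7.81e-07) and BCAP31 (-0.79 ± 0.12, adjusted p = 2.58e-05), which sort membrane proteins at the ER, and SVIP (-0.56 ± 0.13, adjusted p = 0.0017), which is listed there but is known as an inhibitor of ER-associated degradation that binds VCP and not as an export receptor. Of 7 COPII assembly factors 2 rose and 1 fell. MIA3, which organises exit sites for collagen and other large cargo, had 67.7, 70.6 and 64.1 CPM in siGLUT2 libraries and 29.3, 37.4, 40.1 and 46.0 CPM in scrambled libraries (0.82 ± 0.16, adjusted p = 0.000389). KLHL12, an adaptor for SEC31 ubiquitination, rose by 0.51 ± 0.18 (adjusted p = 0.0421), and PEF1, which acts with it, fell by 0.79 ± 0.21 (adjusted p = 0.00544).

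Of 12 COPI and ARF regulators 1 rose, GBF1, the exchange factor that loads ARF with GTP at the early Golgi (0.65 ± 0.16, adjusted p = 0.00327), and 1 fell, YIF1A (-0.63 ± 0.18, adjusted p = 0.0114). Of 34 tethers and RAB GTPases 9 fell and 1 rose. TRAPPC2L, a subunit of the TRAPP tether, fell by 1.19 ± 0.14 (adjusted p = 1.05e-06) and RAB6A, a Golgi RAB, by 1.12 ± 0.18 (adjusted p = 7.98e-05), while RAB1A, which guides ER to Golgi vesicles, rose by 0.62 ± 0.10 (adjusted p = 8.52e-05). Of 15 SNAREs and fusion factors 4 fell and 2 rose, and the smallest adjusted p values were those of STX17 (-1.70 ± 0.19, 4.56e-07), GOSR1 (-1.26 ± 0.17, 1.01e-05) and YKT6 (-0.53 ± 0.11, 0.000829).

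Upstream of vesicle budding, 10 of 34 genes of ER translocation and N-glycan transfer rose and 3 fell. SRPRA, the alpha subunit of the signal recognition particle receptor, had 96.5, 80.8 and 81.3 CPM in siGLUT2 libraries and 31.1, 26.6, 26.7 and 28.4 CPM in scrambled libraries. The groups were far apart (1.61 ± 0.14, adjusted p = 2.88e-08). SEC61A1, the pore of the translocon, rose by 0.55 ± 0.09 (adjusted p = 0.000135), and DDOST, a subunit of the oligosaccharyltransferase, by 0.56 ± 0.10 (adjusted p = 0.000284). Of 25 clathrin and adaptor coat genes, which act after the Golgi, 7 rose and 2 fell, among them AP1S1 (0.80 ± 0.13, adjusted p = 5.29e-05), AP3S1 (0.64 ± 0.15, adjusted p = 0.00182) and GGA2 (-0.83 ± 0.17, adjusted p = 0.000702). Of 11 factors that act on secretory genes 1 rose, ERN1, the ER stress sensor IRE1 (1.62 ± 0.51, adjusted p = 0.0203), and 1 fell, MBTPS2, the protease that releases ATF6 (-0.73 ± 0.21, adjusted p = 0.0101). ERN1 was low, with 11.6, 4.32 and 5.94 CPM in siGLUT2 libraries and 1.96, 2.64, 3.29 and 1.41 CPM in scrambled libraries. Its highest level was in siGLUT2 replicate 2. The 9 uncalled factors included XBP1 (0.34, adjusted p = 0.0644) and ATF6 (0.09, adjusted p = 0.671).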

How the data were processed

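The labels' protocols describe 3′ digital mRNA-seq of HK-2 total RNA as a service, with 125 ng per library and single-end reads of 100 cycles. The values deposited by the authors are raw counts per gene, whole numbers in 7 libraries, and every one of the 7 value columns was used (0 left out). Tools named in the submitters' processing notes are STAR, HTSeq and edgeR, and the build named is hg38, with neither version nor role. Annotation release, strand setting and molecular identifiers are details not given in the sources used here, so reads of overlapping genes cannot be told apart, and reads may not be independent molecules.

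Groups came from the sample titles. edgeR 4.0.16 (R 4.3.3) was fitted to all 7 libraries after filterByExpr with a minimum count of 10 and a minimum total of 15. Scaling was by TMM, dispersion and quasi-likelihood fits were robust, no covariate entered, and Benjamini-Hochberg adjustment ran over 12404 genes with a threshold of 0.05. Each SE is the size of the log2 fold change divided by the square root of its quasi-likelihood F statistic. Intervals are 2 SE to either side. Of 33694 rows in the table, 0 named no gene. The labels do not say that same-numbered libraries pair, so no block was used. In a check, such libraries did not deviate together (correlations 0.00, 0.02 and -0.01). Positions and 3′ UTRs (the longest of at least 50 bases) came from GENCODE 29, and promoters from RefSeq.

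The members, the lists of other genes and the 3′ UTR words were chosen with earlier results of these data known. Named in each role group were up to 5 genes with the smallest adjusted p below 0.05 and up to 2 uncalled genes with the highest CPM, in each other list up to 3 genes with the smallest adjusted p, and every paralogue. Some marker genes are not reported here by name. The remaining uncalled members were added so that each of the 43 is accounted for. Alternatives were DESeq2 1.42.0, limma-voom (limma 3.58.1), other scalings and filters, a replicate block, each library left out, an adjusted p of 0.01 and other definitions of the classes. Removal of mitochondrially encoded genes and an offset for 3′ UTR GC content (3′ UTR known for 43 of 43 members and 93.7% of tested genes) were chosen after seeing the data.

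The script was tested on simulated data, with counts drawn for 12404 genes of siGLUT2 against scrambled. At 1.5-fold edgeR recovered 24 of 66 altered genes, at 2-fold 41 of 66 and at 4-fold 52 of 62. Of 11922 unaltered genes it called 8. Genes that the filter removed are not in these tallies. Only 200 genes were altered, whereas 3509 of 12404 were called in the data, so the adjustment was stricter in the simulation. The rates therefore do not give the sensitivity in the data.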

Additional observations from a re-analysis of the deposited data

Results flagged for a closer look

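ARF1 had 505.0 CPM in scrambled replicate 2, while the other scrambled libraries lay between 541.1 and 543.2 CPM, a gap of 0.944 of the range of the group, above Dixon's 95% critical value for 4 samples. It was the 1 such library among 58 groups examined, and chance alone picks out about 1 group in 20. The siGLUT2 libraries lay at 579, 613 and 602 CPM, above all scrambled libraries.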

How the results depend on the processing

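The log2 fold changes of the 43 genes were recomputed under 16 alternatives, 688 values in all. Of these, 662 kept direction and side of the threshold, 11 passed it newly and 4 lost it. The other 11, of 5 genes that were not called either way, changed sign near 0. They were COPA (0.024 with the replicate block, 0.017 with the 3′ UTR GC offset, -0.070 to 0.085 with a library left out), SEC24C (0.015 with that offset, -0.16 to 0.081 with a library left out), and, with a library left out, COPZ1 (-0.034 to 0.10), SAR1B (-0.013 to 0.40) and TMED2 (-0.060 to 0.12). Lost were TMED7 without scrambled replicate 2 or siGLUT2 replicate 3, SEC23B without siGLUT2 replicate 3, and TMED9 with the replicate block (0.27, adjusted p = 0.0523, range over alternatives 0.000207 to 0.0523), which changed no other call of the 43. Same-numbered libraries share only a number, and siGLUT2 replicate 3 alone correlated best with its own number. With the block 1242 of all genes were higher and 1407 lower. Newly called were ERGIC3 (4 alternatives), ARF1 and COPB2 (2 each), ERGIC1, COPE and COPG2 (1 each).

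Coat subunits called lower ranged from 0 to 1 when a library was left out, the 1 being COPB2 without siGLUT2 replicate 2, and numbered 1, again COPB2, with the 3′ UTR GC offset. The cause was not tested. At an adjusted p of 0.01, 1097 of all genes were higher and 1167 lower (1723 and 1786 at 0.05), and 15 other pathway genes were lower (25 at 0.05), a stricter threshold making fewer calls by construction. The difference between the medians of cargo receptors and coat subunits was reversed, at 0.12, with p24 proteins alone as receptors, the median of those 8 genes, 0.29, lying above that of the coat subunits, 0.17. It ranged from -0.47 to -0.23 with a library left out. The lowest count behind a gene and library was 29 (SEC24A), which limits what could be called there.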

Other observations

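Several pairs of related genes in the wider pathway moved in opposite directions after siGLUT2, chosen here after their values were seen. RAB1A had 210.1, 182 and 172 CPM in siGLUT2 libraries and 130.3, 110.2, 125 and 123 CPM in scrambled libraries, while its paralogue RAB1B had 38.5, 44.1 and 46.8 CPM in siGLUT2 libraries and 72.0, 67.9, 66.5 and 74.4 CPM in scrambled libraries. RAB1A rose (adjusted p = 8.52e-05) and RAB1B fell (adjusted p = 0.000554), and neither overlapped between the groups. TUSC3 and MAGT1, alternative subunits of the oligosaccharyltransferase that contains STT3B, also parted. TUSC3 had 87.8, 87.3 and 79.9 CPM in siGLUT2 libraries and 47.4, 49.3, 62.6 and 62.3 CPM in scrambled libraries (adjusted p = 0.00155). MAGT1 had 87.8, 89.5 and 68.5 CPM in siGLUT2 libraries and 108, 101, 112 and 110.2 CPM in scrambled libraries (adjusted p = 0.0167). Whether any of these pairs differs by a test of the difference itself was not tested.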
